A study of Mus musculus with 6 samples.

Results

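DEAD-box and DEAH-box genes encode a large family of RNA helicases, enzymes that use ATP to unwind short RNA duplexes or to remodel complexes of RNA and protein. The genes described here are the protein-coding rows of the deposited table whose symbol is Ddx or Dhx followed by a number, without Dhx58, Ddx58 and Ddx60, which act as sensors of foreign RNA or beside them. This gave 50 genes of 55573 rows, 35 with a Ddx symbol and 15 with a Dhx symbol. Members of the family act at nearly every step in the life of an RNA. They open and close duplexes during splicing and ribosome assembly, strip proteins from messenger RNA at the nuclear pore, and help ribosomes start on structured messages. Fast-growing liver cancer cells build many ribosomes, and helicases of the nucleolus, the site of ribosomal RNA synthesis, are part of that process.

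RNA was sequenced in bulk from Hepa1-6, a cell line from a mouse liver tumour, in 3 libraries labelled as Matr3 knockout, made with CRISPR/Cas9 (KO1, KO2 and KO3), and 3 libraries labelled as wild type (WT1, WT2 and WT3). Matr3 encodes matrin 3, an RNA-binding protein of the nuclear matrix. The series title names liver cancer progression and a type I interferon response, and the comparison here asks which helicase genes differed in level between the groups. Beyond the genotype, nothing in the labels tells whether each library had its own culture, whether the knockout is 1 clone or several, or whether wild-type cells had carried Cas9 or a control guide. The p-values therefore reflect the spread between libraries alone, which may be technical.

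Library totals ranged from 20736570 to 30794032 counts. Matr3 itself had 76.0, 86.1 and 75.3 CPM, which are counts scaled to a common library size, in KO1, KO2 and KO3, against 129, 125 and 134 CPM in WT1, WT2 and WT3 (log2 fold change -0.71, SE 0.0899, edgeR adjusted p = 0.00270). It was thus lower in each knockout library but not absent. KO1 and KO3 were closest to each other, with a correlation of log2 CPM of 0.994 across the tested genes, while KO2 reached 0.982 with either of them. WT2 and WT3 reached 0.993 with each other, and WT1 reached 0.983 at most. The 8 hepatocyte markers summed to 1020 to 1075 CPM in knockout libraries and 577 to 683 CPM in wild-type libraries, with Ttr at 0 in all of them and the keratins Krt8 and Krt18 making up nearly all of the sum. Krt8 and Krt18 rose, Afp stood at a log2 fold change of -0.79 without passing (edgeR adjusted p = 0.0505), and the other 5 were too low to test. The 10 markers of immune, endothelial and stromal cells summed to 30.5 to 40.7 CPM in knockout libraries and 27.3 to 31.0 CPM in wild-type libraries, with the macrophage marker Adgre1 and the stellate cell marker Lrat at 0. Of the 5 of these that were tested, Col1a1 rose, and Cdh5 and Pdgfrb fell. The part of these markers in the results was not tested.

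The helicase genes were lower in the knockout libraries more often than higher. Of the 46 members with enough counts to be tested, 11 fell and 1 rose at an edgeR adjusted p under 0.05, and 34 did not pass. The 11 that fell were Ddx21, Ddx31, Ddx18, Dhx15, Dhx33, Dhx9, Ddx3x, Ddx1, Dhx36, Ddx19a and Ddx46, and the 1 that rose was Dhx32. Among all 14842 tested genes 15.2% were called, 7.48% as lower and 7.69% as higher, against 26.1% of the helicase genes. The median log2 fold change was -0.18 over the 46 members and -0.02 over all tested genes, with 36 members below 0 and 10 above. In 28 of the 46 the 3 knockout values and the 3 wild-type values did not overlap, 22 of them lower and 6 higher in knockout, where 36.6% of all tested genes had groups apart. In bulk RNA, a lower level in every cell and a lower share of cells holding the RNA cannot be told apart.

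**Figure D1:**
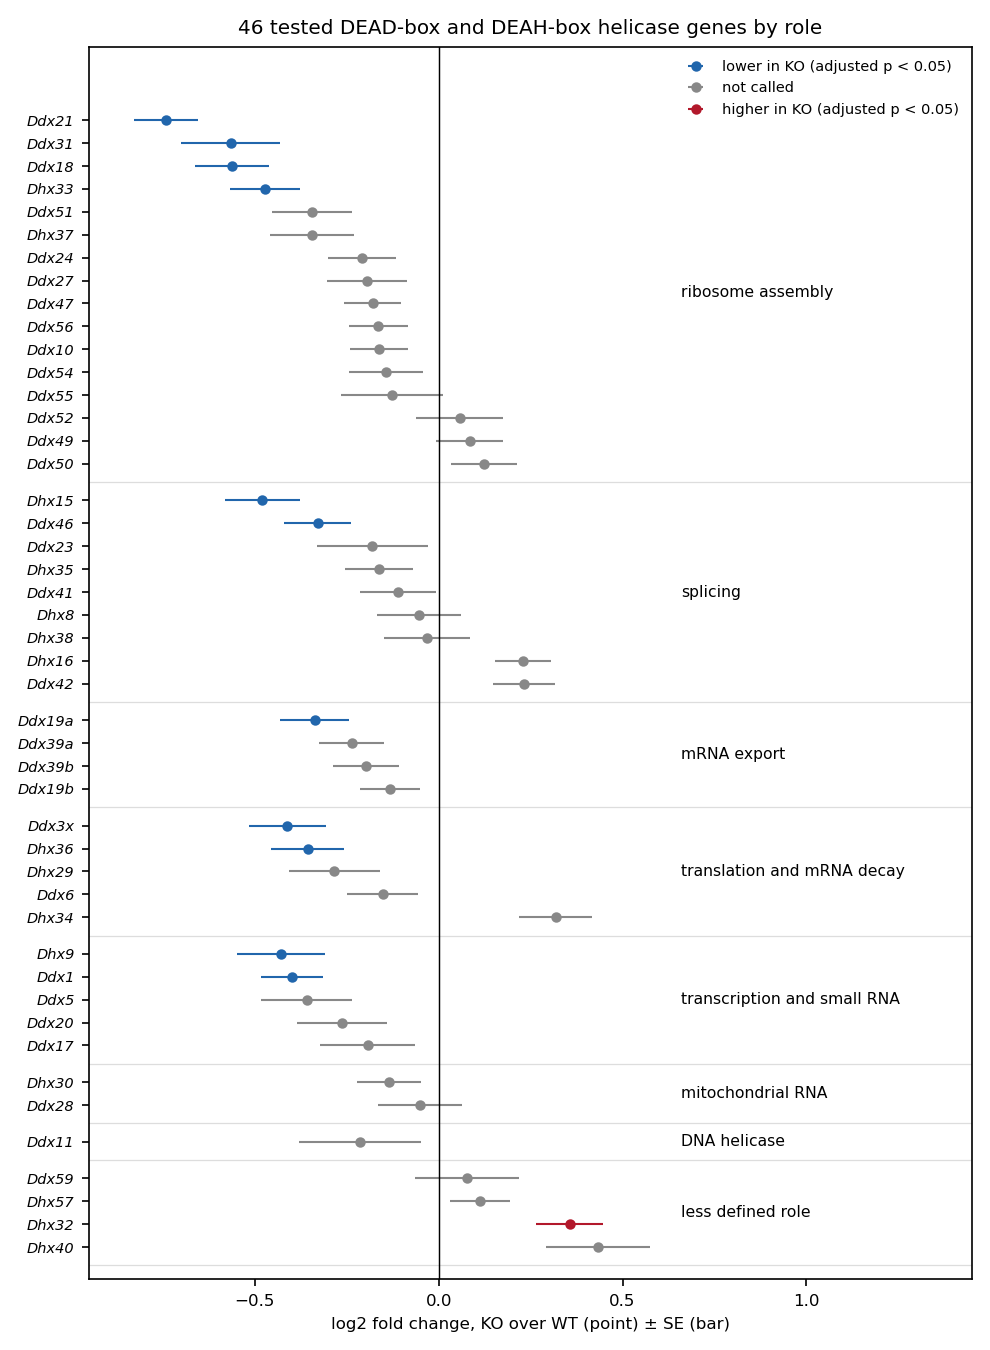
Log2 fold change (knockout over wild type, horizontal axis) of the 46 tested helicase genes, 1 row per gene grouped by role, with bars for the SE; blue marks the 11 genes that fell, red the 1 that rose and grey the 34 that were not called. Ddx21 lies farthest to the left at -0.74, and the 4 genes of less defined role all lie right of 0.

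The sizes were modest. Among the members that fell, log2 fold changes ran from -0.74 to -0.33, and the 34 members not called ran from -0.36 to 0.43. An unadjusted p under 0.05 was reached by 22 of the 46 tested members, or 47.8%, beside 31% of all tested genes, and 10 of the 22 were not called. Of the 28 members whose groups did not overlap, 16 were not called, 11 of them lower and 5 higher in knockout. As a share of all counts, the 50 members together took 0.612%, 0.627% and 0.598% in KO1, KO2 and KO3, against 0.746%, 0.700% and 0.710% in WT1, WT2 and WT3. The groups did not overlap in that share. In the authors' deposited table, 13 members had an adjusted p under 0.05, 11 of them lower and 2 higher, and 11 of the 13 were also called here. The share of all genes under 0.05 in that comparison is not given here, so the 13 cannot be set against it.

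The count of called members depended on single libraries. Without KO1, KO3, WT2 or WT3, the members that fell numbered 3, 1, 1 and 1, and none rose. The share of members called was 6.38%, 2.17%, 2.17% and 2.17%, beside 5.62%, 5.43%, 6.07% and 5.28% of all genes. Without KO2 there were 13 members that fell and 3 that rose, 34.8% of the members beside 28.1% of all genes. Without WT1 there were 10 and 2, 25.5% of the members beside 13.5% of all genes. With both of those libraries left out, 26 members fell and 5 rose, where 51% of all genes were called. With no filter on low counts, the calls of Ddx1, Ddx19a, Ddx3x, Ddx46, Dhx36 and Dhx9 were lost (edgeR adjusted p between 0.0784 and 0.235). With limma on log2(FPKM + 1), those of Ddx19a, Ddx31, Ddx3x, Ddx46, Dhx32, Dhx36 and Dhx9 were lost (adjusted p between 0.0501 and 0.0813). Ddx21 was called under each of the 19 alternatives tried, and no called member changed direction in any of them. The members that fell also had less GC in their transcripts, with a median of 45.2% against 50.8% in those not called, and the deviation of a gene's level in a library from its mean followed GC in opposite directions within the knockout group, with r = 0.263, -0.271 and 0.259 across genes in KO1, KO2 and KO3. With the trend of each library with GC content and gene length removed, 15 members fell and 3 rose, 39.1% of the members beside 20.9% of all genes.

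**Figure D2:**
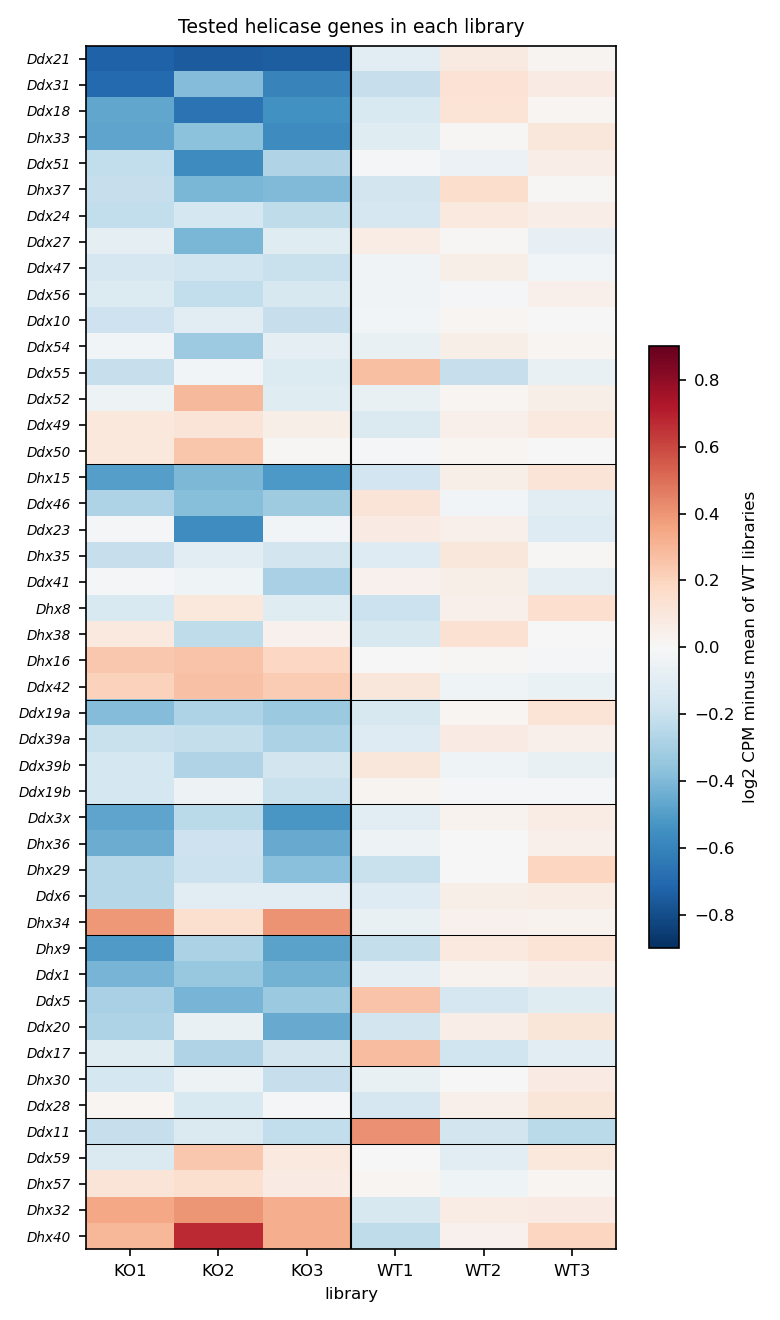
Log2 CPM of each tested helicase gene (rows, grouped by role) in each library (columns, knockout left of wild type) minus the mean of the wild-type libraries, blue for lower and red for higher. The median of the 46 genes was -0.17, -0.18 and -0.20 in KO1, KO2 and KO3 and -0.07, 0.03 and 0.04 in WT1, WT2 and WT3.

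By level per length of transcript, the helicases were well expressed. The median of their mean FPKM (reads scaled to gene length and library size) over the 6 libraries was 18.5 for the 46 tested members and 5.68 for all tested genes, and 42 of the 46 members lay above 5.68 FPKM. Ddx5 came first with a mean of 126 FPKM over the 6 libraries, followed by Ddx3x with 107, Ddx39b with 87.4 and Ddx17 with 61.6 FPKM, and each of these exceeded the next in 6 of 6 libraries. Ddx56 and Ddx21 followed at 53.4 and 53.1 FPKM, and their order differed by group. Ddx56 was above Ddx21 in each knockout library (means of 50.5 and 39.9 FPKM). It was below Ddx21 in each wild-type library (means of 56.2 and 66.3 FPKM). At the low end of the tested members stood Ddx59 with 3.43 FPKM. Members that fell had a median of 33.5 FPKM over the 6 libraries, against 16.1 FPKM in those not called.

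**Figure D3:**
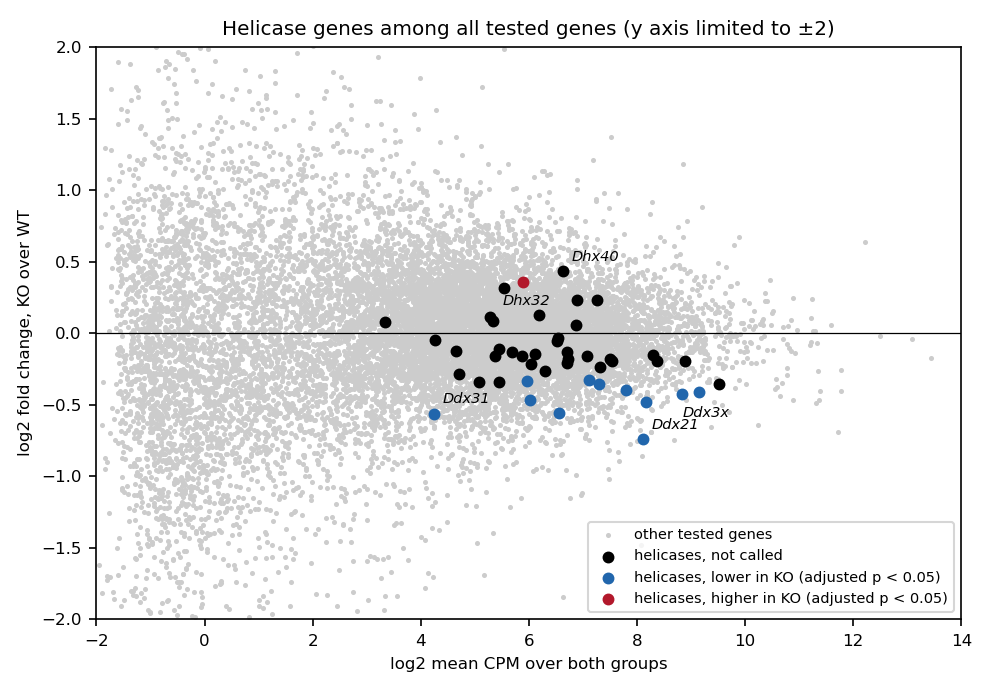
Log2 fold change (knockout over wild type, vertical axis, limited to 2 either way) against log2 mean CPM (horizontal axis) for the tested helicase genes in black, blue and red and the other tested genes in light grey. The helicase genes lie in the upper range of expression, most of them at or below 0.

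The promoter windows of the helicase genes were read for 3 short motifs, since several members fell together. The windows are the 250 bases before each gene start in RefSeq (GRCm38.p6), of which 56 belonged to 45 of the 50 members, and both strands were searched. The ETS letters CCGGAAG stood in 17 of the 56 windows, or 30.4%, against 13.5% of the 12887 windows of tested genes and 6.91% of all 32851 windows. The CCAAT box, CCAAT, stood in 41.1% of the members' windows, against 35.7% of the windows of tested genes. The E-box CACGTG stood in 10.7% of the members' windows, against 8.12% of those of tested genes. Of the 11 members that fell, with 1 window each, 3 held the ETS letters. The windows of those 3 and of Ddx21, the tested member with the largest change, are shown 5′ to 3′ on the strand of the gene, with the ETS letters, or their reverse complement CTTCCGG, in capitals.
Ddx21 chr10:62602299-62602548: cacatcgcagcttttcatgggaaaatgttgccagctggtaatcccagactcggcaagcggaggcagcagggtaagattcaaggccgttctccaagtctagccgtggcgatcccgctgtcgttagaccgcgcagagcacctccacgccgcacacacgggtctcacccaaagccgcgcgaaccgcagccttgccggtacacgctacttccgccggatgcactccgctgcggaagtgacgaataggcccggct
Ddx1 chr12:13249175-13249424: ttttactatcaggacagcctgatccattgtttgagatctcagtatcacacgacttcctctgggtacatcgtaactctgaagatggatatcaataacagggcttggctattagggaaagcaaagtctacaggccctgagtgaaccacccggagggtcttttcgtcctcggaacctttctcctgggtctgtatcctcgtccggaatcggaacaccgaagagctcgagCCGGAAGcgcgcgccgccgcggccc
Dhx9 chr1:153487661-153487910: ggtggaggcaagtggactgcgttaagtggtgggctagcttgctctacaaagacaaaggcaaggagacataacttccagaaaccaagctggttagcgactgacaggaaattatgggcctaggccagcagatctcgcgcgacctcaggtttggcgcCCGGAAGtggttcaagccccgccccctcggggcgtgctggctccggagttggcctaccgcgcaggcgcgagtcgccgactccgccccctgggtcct
Dhx36 chr3:62506989-62507238: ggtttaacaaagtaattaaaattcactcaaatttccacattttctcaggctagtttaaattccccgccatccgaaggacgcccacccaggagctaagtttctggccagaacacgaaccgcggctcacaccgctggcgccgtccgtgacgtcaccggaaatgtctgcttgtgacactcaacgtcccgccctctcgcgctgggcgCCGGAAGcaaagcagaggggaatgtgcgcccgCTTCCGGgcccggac
The capitals begin 25 bases before the start of Ddx1 and 96 bases before that of Dhx9, and at 47 and 15 bases before that of Dhx36, where the second match lies on the other strand. Ddx21 held none of the 3 motifs in this window. Other members with the ETS letters, such as Ddx5, Ddx17, Ddx50 and Dhx16, were not called. A match is a match of letters only, and binding was not measured.

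Helicases of ribosome assembly were the largest group and held the 3 largest log2 fold changes among the 46 tested members. All 16 were tested, 4 of them fell and none rose, 25% beside the 15.2% of all tested genes, with a median log2 fold change of -0.19. The number that fell was 2, 1, 1 and 1 without KO1, KO3, WT2 and WT3, and 5 and 4 without KO2 and WT1. Of all genes, 5.62%, 5.43%, 6.07% and 5.28% were called without KO1, KO3, WT2 and WT3. The shares of all genes were 28.1% and 13.5% without KO2 and WT1. Ddx21, a nucleolar helicase that acts in ribosomal RNA transcription and processing, had 208, 206 and 206 CPM in KO1, KO2 and KO3, against 322, 364 and 350.4 CPM in WT1, WT2 and WT3. The knockout values lay close to each other and far below the lowest wild-type value (log2 fold change -0.74, SE 0.0861, edgeR adjusted p = 0.00200). With any single library left out, its edgeR adjusted p stayed at or below 0.0191. Ddx18, whose yeast counterpart Has1 is needed for both ribosomal subunits, had 80.6, 70.2 and 76.3 CPM in KO1, KO2 and KO3, against 101, 121 and 113 CPM in WT1, WT2 and WT3. Each knockout value was below each wild-type value (log2 fold change -0.56, SE 0.100, edgeR adjusted p = 0.00944). The call of Ddx18 was lost without KO3, WT2 or WT3, at edgeR adjusted p = 0.0599, 0.0522 and 0.0508 in that order.

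Dhx33, a nucleolar DEAH-box helicase linked to transcription by RNA polymerase I, had 54.5, 58.7 and 51.1 CPM in KO1, KO2 and KO3, against 70.1, 76.4 and 81.2 CPM in WT1, WT2 and WT3. All knockout values were again lower (log2 fold change -0.47, SE 0.0949, edgeR adjusted p = 0.0150). For Dhx33, edgeR adjusted p was 0.0880, 0.104, 0.0674 and 0.0820 without KO1, KO3, WT2 or WT3 in that order, above the threshold each time. Ddx31, a counterpart of yeast Dbp7 of the large subunit pathway, had 13.8, 17.2 and 14.8 CPM in KO1, KO2 and KO3, against 19.5, 24.7 and 23.6 CPM in WT1, WT2 and WT3. It was among the least abundant of the group, and its groups did not overlap (log2 fold change -0.57, SE 0.134, edgeR adjusted p = 0.0271). Ddx31 was no longer called without KO1, KO3, WT2 or WT3 (edgeR adjusted p = 0.132, 0.122, 0.107 and 0.105 in that order).

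The other helicases of ribosome assembly did not pass the test. Ddx56, a nucleolar helicase of large subunit assembly, stood above Ddx21 per length in each knockout library and below it in each wild-type library. Ddx56 had 131, 123 and 129.7 CPM in KO1, KO2 and KO3, against 140.0, 142 and 148 CPM in WT1, WT2 and WT3. The knockout values were all lower, by a small margin (log2 fold change -0.16, SE 0.0805, edgeR adjusted p = 0.209). Ddx51, a counterpart of yeast Dbp6, missed the threshold at a log2 fold change of -0.35, edgeR adjusted p = 0.0662, and passed it without KO2 (0.0492), with DESeq2 (0.0481) and after removal of the GC and length trend (0.0323). Dhx37, which in yeast, as Dhr1, frees the U3 small nucleolar RNA from the early small subunit, stood at a log2 fold change of -0.34, edgeR adjusted p = 0.0782. The remaining 9, namely Ddx10, Ddx24, Ddx27, Ddx47, Ddx49, Ddx50, Ddx52, Ddx54 and Ddx55, lay between -0.21 and 0.12 on the log2 scale. In the group of 16 as a whole, 13 lay below 0 and 11 had groups that did not overlap, beside 36.6% of all tested genes. With the GC and length trend removed, 8 of the 16 fell and 1 rose, where 20.9% of all genes were called. Among them were Ddx27, Ddx51, Ddx56 and Dhx37 as lower and Ddx50 as higher (edgeR adjusted p between 0.0172 and 0.0343).

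Ddx50 is the paralogue of Ddx21, and both lie on chromosome 10. Ddx50 had 74.6, 83.0 and 70.1 CPM in KO1, KO2 and KO3, against 69.1, 70.4 and 69.6 CPM in WT1, WT2 and WT3. Its groups overlapped (log2 fold change 0.12, SE 0.0897, edgeR adjusted p = 0.388), while those of Ddx21 were apart. With the GC and length trend removed, Ddx50 stood at 0.31 and was called (edgeR adjusted p = 0.0199). The FPKM ratio of Ddx21 to Ddx50 was 5.46, 4.85 and 5.75 in KO1, KO2 and KO3, against 9.11, 10.1 and 9.86 in WT1, WT2 and WT3. The ratio was lower in 3 of 3 knockout libraries, with p = 0.1 in the two-sided exact permutation test, the smallest p that 3 libraries against 3 allow.

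Other factors that work with these helicases in the nucleolus were also lower in knockout. Of 36 tested ribosome assembly factors that are not DEAD-box or DEAH-box helicases, 23 fell and none rose. That is 63.9%, against the 15.2% of all tested genes, with a median log2 fold change of -0.45. The list was chosen with earlier results of these data known, so this share is a description and not an independent test. Noc2l, a factor of the large subunit pathway, averaged 143 ± 3.23 CPM in KO and 229.9 ± 9.45 CPM in WT (SD, n = 3 each; log2 fold change -0.69, SE 0.0816, edgeR adjusted p = 0.00224). Polr1b, a large subunit of RNA polymerase I, averaged 63.7 ± 3.78 CPM in KO and 102 ± 2.30 CPM in WT (SD, n = 3 each; log2 fold change -0.68, SE 0.0835, edgeR adjusted p = 0.00251). Dkc1, the pseudouridine synthase of the nucleolus, averaged 95.6 ± 6.01 CPM in KO and 152 ± 8.38 CPM in WT (SD, n = 3 each; log2 fold change -0.67, SE 0.0901, edgeR adjusted p = 0.00318). These 3 were called with any single library left out. The count of genes that fell was 6, 8, 9 and 10 without KO1, KO3, WT2 and WT3, and was 28 and 22 without KO2 and WT1. In the same order, 5.62%, 5.43%, 6.07%, 5.28%, 28.1% and 13.5% of all genes were called.

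**Figure D4:**
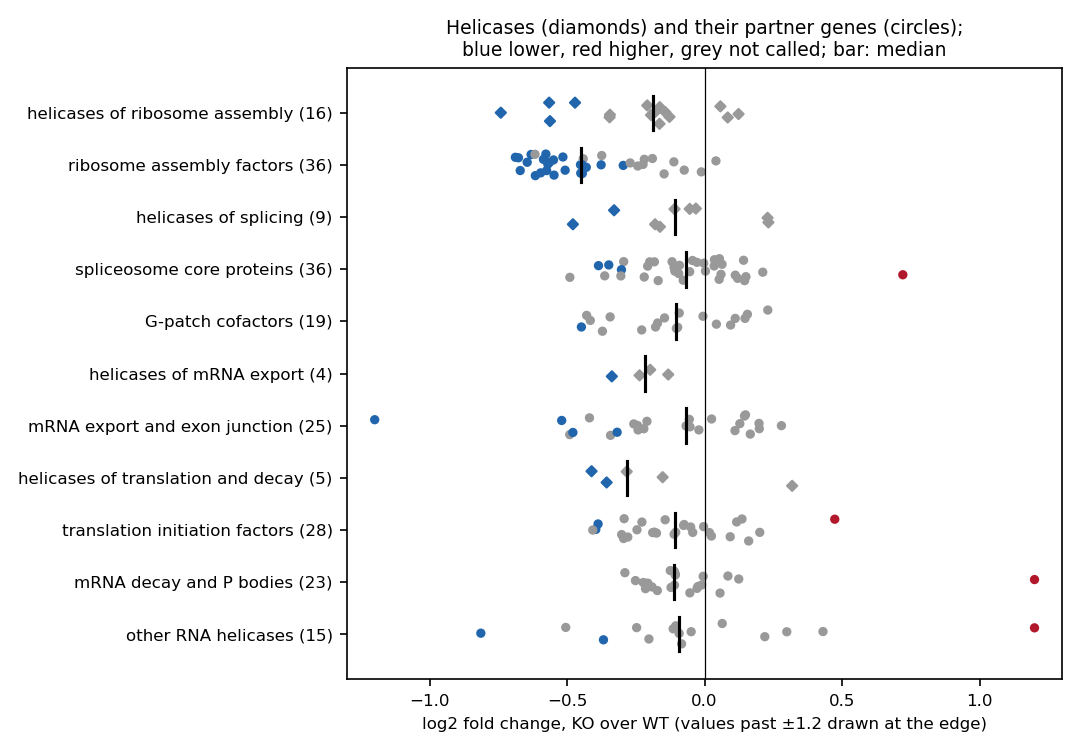
Log2 fold change (knockout over wild type, horizontal axis) of helicases (diamonds) and of the partner genes of the same process (circles), with a bar at each median and the number of tested genes in parentheses; blue fell, red rose, grey not called. The ribosome assembly factors lie farthest to the left, with a median of -0.45, against -0.19 for the helicases of ribosome assembly.

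Among the helicases of splicing, 2 of 9 fell and none rose, with a median log2 fold change of -0.11. That is 22.2%, beside the 15.2% of all tested genes. Dhx15, which takes spent spliceosomes apart and also acts in ribosome assembly, had 235, 250.0 and 232 CPM in KO1, KO2 and KO3, against 294, 344 and 360.2 CPM in WT1, WT2 and WT3. The knockout values were the lower ones in each case (log2 fold change -0.48, SE 0.101, edgeR adjusted p = 0.0178). Without KO1, KO3, WT2 or WT3, Dhx15 missed the threshold at edgeR adjusted p = 0.111, 0.114, 0.0821 and 0.0963 in that order. Ddx46, the counterpart of yeast Prp5, which helps the U2 particle join the branch site, had 127, 118 and 124 CPM in KO1, KO2 and KO3, against 167, 152 and 145 CPM in WT1, WT2 and WT3. The groups were apart by a smaller distance (log2 fold change -0.33, SE 0.0898, edgeR adjusted p = 0.0431). Leaving out KO1, KO3, WT1, WT2 or WT3 ended the call of Ddx46, with edgeR adjusted p = 0.157, 0.187, 0.0821, 0.125 and 0.0988 in that order. It was also lost with library totals alone as scaling (edgeR adjusted p = 0.0624) and after removal of the GC and length trend (0.113).

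The other 7 spliceosomal helicases did not pass. Ddx42, a helicase bound to the SF3B complex of the U2 particle, had 162, 169 and 165 CPM in KO1, KO2 and KO3, against 151, 137 and 135 CPM in WT1, WT2 and WT3. The knockout values were the higher ones, but Ddx42 did not pass (log2 fold change 0.23, SE 0.0846, edgeR adjusted p = 0.102). It passed without WT1, at edgeR adjusted p = 0.0455. It also passed without KO2 and WT1 together, at edgeR adjusted p = 0.000498, where 51% of all genes were called. Its mean of 36.1 FPKM over the 6 libraries was the highest of the group, although in wild type it stood below Dhx15 (33.1 against 38.9 FPKM). Dhx16, the counterpart of yeast Prp2, which activates the spliceosome, was close at a log2 fold change of 0.23, edgeR adjusted p = 0.0811, and passed without KO2 at 0.0497. Ddx23, the counterpart of yeast Prp28, had 190.0, 130.1 and 188 CPM in KO1, KO2 and KO3, against 202, 197 and 176 CPM in WT1, WT2 and WT3. KO2 was the lowest of the 6 there, and the other knockout values lay among the wild-type ones (log2 fold change -0.18, SE 0.150, edgeR adjusted p = 0.451). Dhx35, Ddx41, Dhx8 and Dhx38 lay between -0.16 and -0.03 on the log2 scale, with overlapping groups.

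Of 36 tested core spliceosome proteins, 3 fell and 1 rose, 11.1% beside the 15.2% of all tested genes, with a median log2 fold change of -0.07. Among them Cwc22, which loads the exon junction complex, and Snrpd1, an Sm ring protein, fell, and Snrpf, of the same ring, rose (log2 fold changes -0.39, -0.35 and 0.72, edgeR adjusted p = 0.0154, 0.0318 and 0.0201 in that order). Without WT2 or WT3 all 3 calls were lost, and without KO1 or KO3 those of Cwc22 and Snrpd1 (edgeR adjusted p between 0.0512 and 0.207). Without KO2 8 fell and 3 rose, where 28.1% of all genes were called. Of 19 G-patch proteins, the cofactors that switch on Dhx15 and its relatives, 1 fell, 5.26%, with a median of -0.10. It was Nkrf (log2 fold change -0.45, edgeR adjusted p = 0.0416), whose call was lost without KO1, KO3, WT1, WT2 or WT3 (edgeR adjusted p between 0.0704 and 0.193).

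All 4 helicases of mRNA export had lower values in each knockout library than in any wild-type library. Groups were apart in 36.6% of all tested genes. Of the 4 helicases, 1 passed the test, 25% beside the 15.2% of all tested genes. Ddx19a, which in its yeast form Dbp5 strips proteins from messenger RNA at the nuclear pore, had 53.4, 57.6 and 55.6 CPM in KO1, KO2 and KO3, against 63.3, 70.9 and 76.3 CPM in WT1, WT2 and WT3 (log2 fold change -0.34, SE 0.0947, edgeR adjusted p = 0.0475). The call of Ddx19a was lost without KO1, KO3, WT2 or WT3, at edgeR adjusted p = 0.229, 0.198, 0.150 and 0.198 in that order. Limma voom gave it an adjusted p of 0.0511. Its close paralogue Ddx19b had 48.4, 52.5 and 47.2 CPM in KO1, KO2 and KO3, against 55.2, 53.7 and 53.6 CPM in WT1, WT2 and WT3. The gap between the groups was narrower for Ddx19b, and it was not called (log2 fold change -0.13, SE 0.0827, edgeR adjusted p = 0.318). The FPKM ratio of Ddx19a to Ddx19b was 2.52, 2.50 and 2.68 in KO1, KO2 and KO3, against 2.62, 3.01 and 3.24 in WT1, WT2 and WT3, groups that overlap (two-sided exact permutation p = 0.2).

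Ddx39b, known as UAP56, which joins the TREX export complex to spliced messages, had 317, 294 and 316 CPM in KO1, KO2 and KO3, against 380.0, 345 and 338 CPM in WT1, WT2 and WT3 (log2 fold change -0.20, SE 0.0894, edgeR adjusted p = 0.174). Its paralogue Ddx39a, with an overlapping role, had 149, 148 and 141 CPM in KO1, KO2 and KO3, against 158, 180.4 and 177 CPM in WT1, WT2 and WT3 (log2 fold change -0.24, SE 0.0884, edgeR adjusted p = 0.109). Both were lower in knockout without passing, and both passed with the GC and length trend removed (edgeR adjusted p = 0.0315 and 0.0389). Their FPKM ratio, Ddx39a to Ddx39b, lay between 0.327 and 0.369 in knockout libraries and between 0.305 and 0.385 in wild-type libraries. The members of each of these pairs are alike in sequence, and the counting step that shares or drops reads between them is not known, so the split within a pair is uncertain. Ddx39a also overlaps Adgre5 on the opposite strand over 3642 bases.

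Of 25 tested partners in mRNA export and the exon junction complex, 4 fell and none rose, 16%, with a median log2 fold change of -0.07. Magohb, a near-identical copy of the exon junction protein Magoh, had 0 counts in KO1, KO2 and KO3, against 107, 72 and 82 counts in WT1, WT2 and WT3. That is at least 97.0-fold lower, with a floor of 3 counts over the knockout group. Nxf1, the main mRNA export receptor, and Thoc2, of the THO part of TREX, also fell (log2 fold changes -0.48 and -0.52, edgeR adjusted p = 0.0229 and 0.0355 in that order). Both calls were lost without KO1, KO3, WT1 or WT3, and that of Thoc2 also without WT2 (edgeR adjusted p between 0.0590 and 0.152).

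In translation and mRNA decay, 2 of the 5 tested helicases fell and none rose, with a median of -0.28. That is 40%, beside the 15.2% of all tested genes. Ddx3x, which helps initiate translation on structured messages, had 464, 545 and 449 CPM in KO1, KO2 and KO3, against 604, 660.2 and 675 CPM in WT1, WT2 and WT3. KO2 was the highest of its group and still below each wild-type library (log2 fold change -0.41, SE 0.106, edgeR adjusted p = 0.0348). For Ddx3x, edgeR adjusted p was 0.188, 0.200, 0.123 and 0.145 without KO1, KO3, WT2 or WT3 in that order, above the threshold each time. The Y-linked paralogue Ddx3y was listed at 0 in all 6 libraries. Ddx3x also has a near-identical retrogene, so its reads may be shared. Dhx36, which unwinds G-quadruplexes in RNA and DNA, had 130.2, 156 and 129 CPM in KO1, KO2 and KO3, against 172, 177 and 183 CPM in WT1, WT2 and WT3. As with Ddx3x, KO2 was the nearest to wild type (log2 fold change -0.36, SE 0.0995, edgeR adjusted p = 0.0466). Dhx36 was no longer called without KO1, KO3, WT1, WT2 or WT3 (edgeR adjusted p = 0.236, 0.244, 0.0726, 0.139 and 0.172 in that order). With library totals alone as scaling its edgeR adjusted p was 0.0544. With the GC and length trend removed it stood at a log2 fold change of -0.20 and edgeR adjusted p = 0.0561.

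Dhx34, a helicase of nonsense-mediated decay, was the member of this group with higher values in knockout. It had 53.9, 45.6 and 54.6 CPM in KO1, KO2 and KO3, against 39.2, 42.2 and 42.0 CPM in WT1, WT2 and WT3. The groups did not overlap, and KO2 was the lowest of its group (log2 fold change 0.32, SE 0.0989, edgeR adjusted p = 0.0641). Without KO2 it passed the threshold, at 0.40 and edgeR adjusted p = 0.00704. It also passed with DESeq2, library totals alone, protein-coding genes only or a minimum mean of 1 CPM (adjusted p between 0.0403 and 0.0493). Dhx29, which aids scanning of structured leaders, stood at a log2 fold change of -0.28, edgeR adjusted p = 0.161, and Ddx6, the decapping helicase of P bodies, at a log2 fold change of -0.15, edgeR adjusted p = 0.318.

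Of 28 tested translation initiation factors, 2 fell and 1 rose, 10.7%, with a median log2 fold change of -0.11. Eif3j1, a subunit loosely bound to initiation factor 3, and Eif4g1, the scaffold of the cap-binding complex, fell, and Eif1, which guards start codon choice, rose (log2 fold changes -0.40, -0.39 and 0.47, edgeR adjusted p = 0.0222, 0.0334 and 0.0224 in that order). Among 23 tested factors of mRNA decay and P bodies, 1 rose and none fell, 4.35%, with a median of -0.11. It was the decapping cofactor Dcp1b, at a low level of 1.66 ± 0.642 CPM in KO and 0.423 ± 0.259 CPM in WT (SD, n = 3 each; log2 fold change 1.99, edgeR adjusted p = 0.0393). These 4 calls were lost without KO1, KO3, WT2 or WT3 (edgeR adjusted p between 0.0543 and 0.146). Without KO2, 8 initiation factors fell and 2 rose, and 3 decay factors fell and 1 rose, where 28.1% of all genes were called.

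All 5 helicases of transcription and small RNA pathways lay below 0, and 2 of them fell, with a median of -0.36. That is 40% called, beside the 15.2% of all tested genes. Dhx9, also called RNA helicase A, which resolves RNA duplexes and hybrids with DNA, had 365, 428 and 373 CPM in KO1, KO2 and KO3, against 448, 555 and 568 CPM in WT1, WT2 and WT3. KO2 and WT1 were the closest values across the groups, which did not overlap (log2 fold change -0.43, SE 0.120, edgeR adjusted p = 0.0464). Without KO1, KO3, WT2 or WT3, Dhx9 missed the threshold at edgeR adjusted p = 0.215, 0.204, 0.157 and 0.179 in that order. Ddx1, a subunit of the tRNA ligase complex, had 189, 199 and 188 CPM in KO1, KO2 and KO3, against 238, 258 and 263 CPM in WT1, WT2 and WT3. The groups were well apart (log2 fold change -0.40, SE 0.0848, edgeR adjusted p = 0.0181). Leaving out KO1, KO3, WT2 or WT3 ended the call of Ddx1, with edgeR adjusted p = 0.130, 0.133, 0.0875 and 0.103 in that order.

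Ddx5, known as p68, a transcription coactivator that also assists microRNA processing by Drosha, was the most abundant member per length. It had 664, 608 and 643 CPM in KO1, KO2 and KO3, against 969, 733 and 755 CPM in WT1, WT2 and WT3. WT1 stood well above the other wild-type libraries, and Ddx5 was not called (log2 fold change -0.36, SE 0.123, edgeR adjusted p = 0.0860). Its log2 fold change was -0.20 without that library. DESeq2 gave an adjusted p of 0.0404, and the authors' deposited table gives 0.0435. Its paralogue Ddx17, or p72, had 464, 415 and 444 CPM in KO1, KO2 and KO3, against 604, 442 and 467 CPM in WT1, WT2 and WT3. There too WT1 was the highest, and the groups overlapped (log2 fold change -0.19, SE 0.130, edgeR adjusted p = 0.351). The FPKM ratio of Ddx5 to Ddx17 was 1.90, 1.94 and 1.91 in KO1, KO2 and KO3, against 2.12, 2.19 and 2.14 in WT1, WT2 and WT3. The ratio did not overlap between groups, WT1 included, with the smallest two-sided exact permutation p that the design allows (0.1). Ddx20, or gemin 3, a subunit of the SMN complex, stood at a log2 fold change of -0.26, edgeR adjusted p = 0.189, and passed without KO2 at 0.0332.

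Of 12 tested genes of the SMN and tRNA ligase complexes, which hold Ddx20 and Ddx1, 3 fell and none rose, 25%, with a median log2 fold change of -0.17. These were Gemin5, which recognises small nuclear RNAs, Smn1, the central subunit, and Gemin8 (log2 fold changes -0.40, -0.43 and -0.55, edgeR adjusted p = 0.0329, 0.0432 and 0.0391 in that order). Their calls were lost without KO1, KO3, WT2 or WT3, and that of Gemin8 also without WT1 (edgeR adjusted p between 0.0574 and 0.191). Of 10 tested genes of microRNA processing, 1 fell and 1 rose, 20%, with a median of -0.19. Dicer1, which cuts microRNA precursors, fell (log2 fold change -0.51, edgeR adjusted p = 0.0148), but not without KO1, KO3, WT2 or WT3 (edgeR adjusted p between 0.0618 and 0.0911). Ago4, an Argonaute protein at a low level, averaged 0.955 ± 0.185 CPM in KO and 0.0939 ± 0.0181 CPM in WT (SD, n = 3 each; log2 fold change 3.27, edgeR adjusted p = 0.00357) and was called with any single library left out.

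The helicases of mitochondrial RNA were not called. Dhx30, a factor of mitochondrial ribosome assembly, had 97.8, 106 and 94.5 CPM in KO1, KO2 and KO3, against 104, 109 and 114 CPM in WT1, WT2 and WT3 (log2 fold change -0.14, SE 0.0865, edgeR adjusted p = 0.327). Ddx28, of the same process, stood at a log2 fold change of -0.05, edgeR adjusted p = 0.792. It lies within the span of Dus2 on the opposite strand, and whether reads were counted by strand is not stated. Ddx11, a DNA helicase of sister chromatid cohesion, had 60.2, 63.5 and 59.7 CPM in KO1, KO2 and KO3, against 92.3, 61.9 and 58.6 CPM in WT1, WT2 and WT3. WT1 was the highest, and the other 5 libraries lay between 58.6 and 63.5 CPM (log2 fold change -0.21, SE 0.165, edgeR adjusted p = 0.416).

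The 4 helicases of less defined role were the group in which all values lay above 0, with a median of 0.23. Dhx32, the member that rose, had 66.2, 68.6 and 65.2 CPM in KO1, KO2 and KO3, against 47.1, 54.4 and 54.8 CPM in WT1, WT2 and WT3. Each knockout library lay above each wild-type library (log2 fold change 0.36, SE 0.0903, edgeR adjusted p = 0.0334). The call of Dhx32 was lost without KO1, KO3, WT2 or WT3, at edgeR adjusted p = 0.106, 0.100, 0.0890 and 0.0934 in that order. Dhx32 overlaps Bccip over 204 bases and Fank1 over 5866 bases, both on the opposite strand, and Bccip had 9383 counts in all against 9442 for Dhx32. Dhx40, the most abundant of the group per length, had 104, 134 and 105 CPM in KO1, KO2 and KO3, against 71.8, 86.4 and 96.1 CPM in WT1, WT2 and WT3. KO2 was the highest of the 6 and WT1 the lowest, and Dhx40 did not pass (log2 fold change 0.43, SE 0.142, edgeR adjusted p = 0.0749), although DESeq2 gave an adjusted p of 0.0329 and the authors' deposited table gives 0.0333. With the GC and length trend removed it passed at edgeR adjusted p = 0.0136. Dhx57 stood at a log2 fold change of 0.11, edgeR adjusted p = 0.390, and Ddx59 at a log2 fold change of 0.08, edgeR adjusted p = 0.748.

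**Figure D5:**
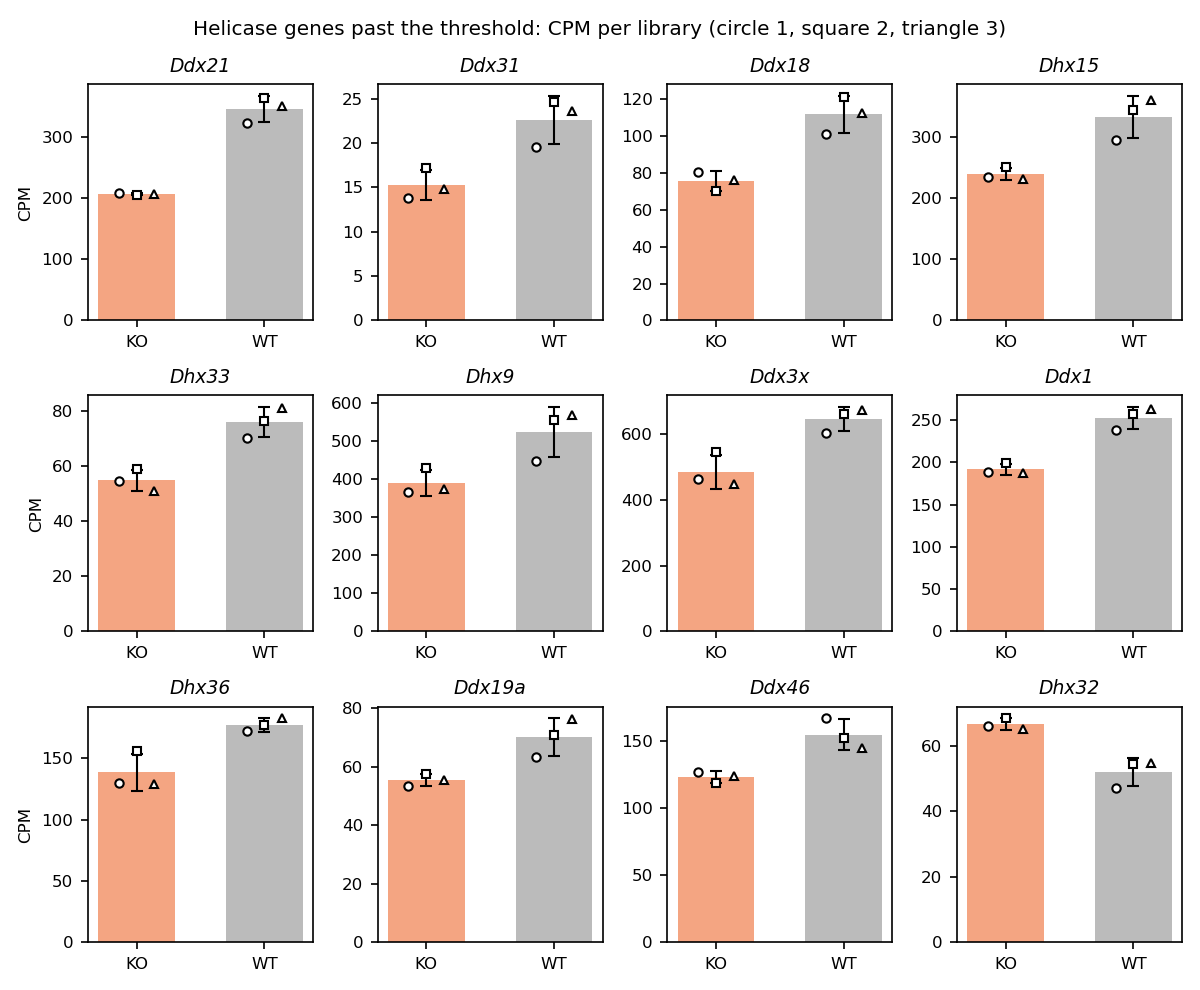
CPM in each library of the 12 helicase genes past the threshold, knockout left of wild type, with bars for the group mean, error bars for the SD and symbols for the replicate number. In each panel the 3 knockout values and the 3 wild-type values do not overlap, and Dhx32 is the panel with the knockout values above.

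The 3 germ line helicases were at or near 0 and were not tested, as was Ddx3y. Ddx25, a testis helicase, had 0 counts in the 3 knockout libraries, against 5, 10 and 11 counts in WT1, WT2 and WT3, at least 9.66-fold lower with a floor of 3 counts over the knockout group. With no filter on low counts its edgeR adjusted p was 0.00253. The authors' deposited table gives Ddx25 a log2 fold change of -0.47 and no adjusted p under 0.05. Ddx4, the Vasa helicase of germ cells, had 1 count in KO2 and 0 counts elsewhere, and Ddx43 had 0 counts in all 6 libraries. A count of 0 in a group allows up to 0.0361 CPM in knockout and 0.0403 CPM in wild type.

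Outside the family, 15 other RNA helicases were tested, of which 2 fell and 1 rose, 20%, with a median log2 fold change of -0.09. Ascc3, which acts on collided ribosomes, and Upf1, the helicase of nonsense-mediated decay, fell, and the helicase-like gene Dqx1, at a low level, rose (log2 fold changes -0.81, -0.37 and 1.84, edgeR adjusted p = 0.0153, 0.0443 and 0.0396 in that order). The 3 calls were lost without KO1, KO3, WT2 or WT3, and that of Upf1 also without WT1 (edgeR adjusted p between 0.0581 and 0.151).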

How the data were processed

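RNA was measured in 6 libraries, 3 labelled knockout (KO) and 3 labelled wild type (WT) by title and genotype. The authors deposited 1 table for the series, with raw counts per gene, FPKM values, 1 mean signal (scaled counts) per group, and the log2 fold changes and p-values of their own comparison, per the file headers. Per the labels' protocols, RNA came from a column kit and libraries from an mRNA-seq kit. Strandedness, aligner, counter and annotation are not stated there. The submitters' processing notes name GRCm38 and mm10, but 1 of the 50 members has the same start and end in the GENCODE M21 annotation of GRCm38, so the table's coordinates are not printed. Promoter windows come from RefSeq (GRCm38.p6).

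The deposited counts went into edgeR 4.0.16 in R 4.3.3. After filterByExpr, 14842 of the 27065 genes with a count remained. TMM factors scaled the libraries, and a quasi-likelihood F test without covariates set KO against WT. Benjamini-Hochberg adjustment ran over every tested gene, with calls below 0.05. Log2 fold changes are KO over WT, and each SE was derived from its F value. CPM are counts per TMM-adjusted library size, and levels of different genes were compared only as FPKM. Where all libraries of a group had 0 counts, a floor of 3 counts over the group was used, which reflects counting error only, as reads without molecular identifiers may be copies of 1 molecule. The scripts were tested on simulated counts. There, 53.7% of 67 genes set to change 1.5-fold were recovered, 97% of 67 at 2-fold and 100% of 66 at 4-fold. False calls stood at 10.2%.

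The members, roles and partner lists were chosen with earlier results of these data known. Named with values were all called members, the member with the highest FPKM in each role, the paralogous pairs, and up to 3 called genes of smallest p in each partner list. Other members named with a fold change or per-library values (Ddx23, Dhx34, Ddx25 and those close to the threshold) were chosen after their values were seen.

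Alternatives were RLE size factors, library totals, no filter, protein-coding genes only, a mean of at least 1 CPM, a block for the replicate number, removal of each library's trend with GC content and length (alone and with that block), DESeq2 1.42.0, limma 3.58.1 with voom or on log2(FPKM + 1), an adjusted p under 0.01, and leaving out single libraries or a pair of them.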

Additional observations from a re-analysis of the deposited data

How the results depend on the processing

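The median log2 fold change of the tested helicase genes was below 0 under all 19 alternatives. It was -0.19 without KO2 and WT1 together, -0.13 with no filter on low counts, -0.16 with library totals alone, a mean of at least 1 CPM or limma on log2(FPKM + 1), -0.21 with the GC and length trend removed with or without the replicate block, and between -0.18 and -0.15 with single libraries left out. The helicase genes that fell numbered 6 with no filter, 5 with limma on log2(FPKM + 1), 2 at an adjusted p under 0.01, 26 without KO2 and WT1 together, and 1 to 13 without single libraries. Those that rose numbered 2 with library totals alone, no filter, protein-coding genes only, a mean of at least 1 CPM or the GC trend removed with the block, 3 with the GC trend removed or DESeq2, 0 with limma on log2(FPKM + 1) or an adjusted p under 0.01, 5 without that pair of libraries, and 0 to 3 without single libraries. The share of members called, in either direction, was 10.9% with limma on log2(FPKM + 1) and 4.35% at an adjusted p under 0.01. The shares of all genes there were 12.5% and 4.86%. With no filter, 16.7% of the members were called beside 10.6% of all genes, and with library totals alone 23.9% beside 16.1%. Protein-coding genes only gave 28.3% beside 21.8%, and a mean of at least 1 CPM 28.3% beside 17.3%. With the GC trend removed the shares were 39.1% and 20.9%, and with the block added 28.3% and 16.7%. DESeq2 gave 34.8% beside 19.6%. Without KO2 and WT1 together they were 67.4% and 51%. Over all genes the calls were 721 at an adjusted p under 0.01, 7556 without KO2 and WT1 together, and 807 to 4295 without single libraries. The cause of these shifts was not tested. Knockout and wild-type libraries share replicate numbers, and the labels do not say whether these pair the libraries. Deviations of same-numbered libraries from their group means had r = 0.174, -0.032 and -0.203. With 3 libraries per group these values cannot decide it. With the replicate block, 1599 genes were called, 5 helicase genes fell and 0 rose, 10.9% of the members beside 10.8% of all genes. For the 12 called helicase genes, 144 of 228 comparisons with an alternative kept the call, 84 lost it and 0 reversed. For those not called, 45 comparisons gained a call and 601 did not. For the 22 partner genes and Matr3, 123 comparisons lost a call and 0 reversed.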
